A study of Mus musculus with 73 samples.

Results

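Pairs in which both members are strong enhancers were examined for the level they reached with each promoter and for how far that level rose with the strength of the enhancers. They were measured in a combinatorial massively parallel reporter assay (MPRA), in which a barcoded reporter carries a promoter and, downstream of the reporter, an ordered pair of DNA fragments, each of them an enhancer or a control sequence. A combination of an enhancer and a control is called EC below, a pair of controls CC and a pair of enhancers EE. The strength S of an enhancer was defined as the mean, over the *Sox2*, *Lefty1* and *Tbx3* promoter libraries, of the median boost index of its EC combinations in both positions and orientations. This index gives, on the log2 scale, how far a combination lies above the median CC combination of its library. An enhancer with S of 3 or more was called strong, and a pair was included when both enhancers were strong and came from different loci. Of 55 enhancers with a value of S, 12 were strong, 25 had S from 1 to below 3 (middle) and 18 had S below 1 (weak). The pairs made up 3229 of 69206 EE combinations (4.67%) and of 110180 combinations of all types in the 8 libraries.

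All libraries were transfected into E14TG2a cells, a single established line of mouse embryonic stem cells (mESCs), grown in 2i+LIF medium, and no library received a further treatment. Each library holds 1 promoter, *Ap1m1*, *Fgf5*, *Klf2*, *Lefty1*, *Nanog*, *Otx2*, *Sox2* or *Tbx3*, and was nucleofected in 3 biological replicates on different days and collected 24 hours later. Of 73 samples, 48 are cDNA samples (each replicate sequenced in 2 runs), 16 are plasmid DNA samples and 9 are inverse PCR samples that link barcodes to fragments. The plasmids are transient and not integrated, and enhancers and promoter lie close to each other, so that genomic distance and chromatin are not part of these measurements.

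Enhancers are stretches of DNA that bind transcription factors and raise the output of promoters at a distance. In mESCs the enhancers of pluripotency genes are bound by factors such as OCT4 (the product of *Pou5f1*), SOX2, NANOG and KLF2, and many genes are surrounded by clusters of such elements. If 2 enhancers act independently on one promoter, their contributions above the baseline add up, which is the additive expectation used here. *Lefty1* and *Nodal* encode secreted proteins of the TGF-beta family, *Otx2*, *Tbx3* and *Sox2* encode transcription factors, *Fgf5* encodes a growth factor switched on as cells leave the naive state, and *Ap1m1* encodes a subunit of a clathrin adaptor complex expressed in most cells.

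The 12 strong enhancers came from 7 loci, and the genomic windows selected for them are all 450 bp long. The PCR primers lie within the ends of these windows, so that the cloned products are somewhat shorter. Coordinates are those of mm10, annotated with RefSeq genes of GRCm38. Pou5f1_E081 had the highest strength, with an S of 4.74 ± 0.12 (SD, n = 3 replicates). It lies at chr17:35503887-35504336, within the long non-coding RNA gene *Gm32362* and 1696 bp from *Pou5f1*. Klf2_E058 followed with 4.60 ± 0.13 and lies in intergenic DNA at chr8:72316077-72316526, 2536 bp from *Klf2*. Sox2_E180 reached 4.39 ± 0.19 at chr3:34757763-34758212, which is intergenic and 105302 bp from *Sox2*. These 3 were the strongest single enhancers, and each belongs to the locus of a pluripotency factor. Nanog_E073 (4.28 ± 0.16, chr6:122702446-122702895) and Nanog_E074 (3.97 ± 0.18, chr6:122702830-122703279) overlap each other and lie 4594 and 4210 bp from *Nanog*. Being of one locus they were never paired here, so that no member holds overlapping fragments. Nodal_E159 (4.25 ± 0.15) lies at chr10:61415836-61416285, 1687 bp from *Nodal*. Lefty1_E085 (4.14 ± 0.21) lies at chr1:180888586-180889035, 4073 bp from *Lefty2*, and Otx2_E111 (4.03 ± 0.11) at chr14:48654889-48655338, 1443 bp from *Otx2*. All 3 of these are intergenic.

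Nanog_E090 (3.68 ± 0.17) lies within the body of *Slc2a3*, a glucose transporter gene, at chr6:122770251-122770700. Nanog_E064 (3.49 ± 0.11) lies at chr6:122662794-122663243, 32523 bp from *Dppa3*. The members closest to the threshold were Lefty1_E094, with an S of 3.13 ± 0.28, and Sox2_E183, with 3.11 ± 0.07. Lefty1_E094 lies at chr1:180933655-180934104 in the long non-coding RNA gene *Gm39715*, 918 bp from *Lefty1*, and Sox2_E183 in intergenic DNA at chr3:34761124-34761573, 108663 bp from *Sox2*. Just outside the threshold were Sox2_E179 with 2.71 ± 0.11 and Tbx3_E209, in the body of *Tbx3*, with 2.48 ± 0.15. S of Lefty1_E094 was 3.28, 3.29 and 2.81 in the 3 replicates, so that in replicate 3 alone it was below 3. These values selected the members and are given without a test.

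The fragments were amplified from genomic DNA with specific primers. The primer sequences of 6 enhancers are shown because the results below turn on them, namely the strongest enhancer (Pou5f1_E081), the enhancer that gave the highest pairs (Lefty1_E094) and the enhancers of the lowest pairs (Klf2_E058, Nodal_E159, Sox2_E180 and Nanog_E074). No base is in capitals, since no part of a primer was singled out.
Pou5f1_E081 forward primer: attgaatacagacaggactgctggg
Pou5f1_E081 reverse primer: atgaatcttccgtttcctccactctg
Lefty1_E094 forward primer: tttcttacttagccctcatttccctcg
Lefty1_E094 reverse primer: cgtactgaatctgggacttggttacac
Klf2_E058 forward primer: cagggccataggttcagacaaag
Klf2_E058 reverse primer: aaggatgtttcaaactaagcctgacag
Nodal_E159 forward primer: tccttgttccctacactataagcatcc
Nodal_E159 reverse primer: ttgaaccagcggtctcctgc
Sox2_E180 forward primer: tttaagtttgccttgtgagctcagg
Sox2_E180 reverse primer: cggtattaaagtctccttcacaagacc
Nanog_E074 forward primer: ccctgtaccaaacctttgtagaacttg
Nanog_E074 reverse primer: ggatacaaagcccagcaaactacc

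Of the 8 promoter genes, *Fgf5*, *Nanog* and *Klf2* have a RefSeq promoter whose 250 bases upstream of the annotated start lie wholly within the fragment tested. They are shown since the members reached a high boost index with the *Fgf5* promoter and a lower one with the other two. Capitals mark GGGCGG or its reverse complement CCGCCC, the core of the GC box. The letters TATAAA and CCAAT were searched as well on both strands. The *Fgf5* stretch lies at chr5:98253934-98254183, the *Nanog* stretch at chr6:122707239-122707488 and the *Klf2* stretch at chr8:72318812-72319061, all on the plus strand of GRCm38.p6.
Fgf5: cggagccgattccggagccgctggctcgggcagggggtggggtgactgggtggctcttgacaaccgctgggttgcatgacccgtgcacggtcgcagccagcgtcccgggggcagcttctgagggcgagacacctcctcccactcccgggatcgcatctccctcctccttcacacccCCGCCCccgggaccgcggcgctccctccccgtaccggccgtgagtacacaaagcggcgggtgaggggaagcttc
Nanog: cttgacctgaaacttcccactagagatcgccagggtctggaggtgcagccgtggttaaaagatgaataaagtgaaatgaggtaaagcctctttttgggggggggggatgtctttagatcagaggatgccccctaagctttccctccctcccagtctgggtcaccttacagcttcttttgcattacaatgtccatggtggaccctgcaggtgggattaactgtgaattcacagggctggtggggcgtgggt
Klf2: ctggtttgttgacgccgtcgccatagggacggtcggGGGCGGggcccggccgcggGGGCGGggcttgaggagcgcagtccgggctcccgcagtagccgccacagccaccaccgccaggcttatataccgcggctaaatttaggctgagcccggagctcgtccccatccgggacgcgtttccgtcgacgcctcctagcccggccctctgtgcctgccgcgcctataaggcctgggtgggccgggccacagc
The *Fgf5* stretch holds 1 match to the GC box and 70.8% G or C, the *Klf2* stretch 2 matches and 71.2%, and the *Nanog* stretch 0 matches and 52.0%. TATAAA and CCAAT have 0 matches in these stretches. Of 32851 RefSeq promoter stretches of this length, 32.7% hold the GC box letters, 12.4% hold TATAAA and 33.8% hold CCAAT. A match describes letters in this window and is no measured binding site.

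The depth behind an activity is unknown, since the table holds activities and no barcode numbers. No counting error is therefore given, and each error is the SD over 3 replicates. Between 345 and 430 of 464 possible ordered and oriented combinations were measured per library, and 0 members were at 0 in any replicate. All 58 possible pairs of strong enhancers were measured, 53 of them in all 8 libraries. Pearson's R of log2 activity between replicates of the members was 0.66 to 0.92 in 7 libraries and 0.45 to 0.60 in the *Fgf5* library. The *Fgf5* library also had only 23 CC combinations above 0, against 219 to 477 in the other libraries, and its members' median boost index was 4.12 with the recalculated and 4.70 with the deposited baseline. A total of 25 members, all pairs of Nanog_E073 in the *Fgf5* library, have no additive expectation, because this enhancer had no EC combination there. Another 3 single-enhancer medians of the *Fgf5* library rest on fewer than 6 EC combinations.

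Pairs of 2 strong enhancers reached a boost index that depended on the promoter. The median boost index of the members was highest in the *Lefty1* library, at 5.01 ± 0.15 (SD, n = 3), or 32.1-fold over the baseline, with 4.83, 5.08 and 5.09 in the 3 replicates. It was 4.54 ± 0.34 in the *Tbx3* library (4.71, 4.67 and 4.10) and 4.47 ± 0.12 in the *Sox2* library (4.63, 4.50 and 4.38). In the *Fgf5* library it was 4.12 ± 0.47, with replicates of 4.68, 4.31 and 3.75. These 4 promoters thus formed a high group, in which the replicates of *Lefty1* lay above those of the other 3, while *Tbx3* and *Sox2*, and *Sox2* and *Fgf5*, overlapped. The *Nanog* library had a median of 2.11 ± 0.33 (1.81, 2.45 and 1.99) and the *Otx2* library of 2.02 ± 0.30 (1.69, 1.93 and 2.28). The *Klf2* library had 1.95 ± 0.16 (1.80, 2.11 and 1.89), which overlapped both. The *Ap1m1* library was lowest, at 0.59 ± 0.24 or 1.5-fold over the baseline, with 0.42, 0.88 and 0.54, all below every replicate of the other libraries. Since the enhancers were selected on EC values of *Sox2*, *Lefty1* and *Tbx3*, this order is a description. The index is also a ratio to the CC baseline of each promoter. The log2 baseline was -3.53 with *Lefty1*, -3.16 with *Tbx3*, -2.54 with *Sox2* and -2.23 with *Fgf5*. It was -1.63 with *Nanog*, -1.34 with *Klf2*, -1.29 with *Otx2* and -0.77 with *Ap1m1*, so that the boost indices ran nearly opposite to the baselines. The part of the baseline in this order was not tested. With the deposited baselines *Fgf5* (4.70) would come before *Tbx3* (4.45) and *Sox2* (4.33).

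Within a library the members filled a narrower band than the other EE combinations. Selecting only strong enhancers narrows this band in itself, so that the spans are descriptions. The expected additive log2 activity also spread less among members, with an SD of 0.29 with *Sox2* and 0.40 with *Lefty1*. Among the other pairs this SD was 1.18 and 1.32. The 5th and 95th percentiles of their boost indices were 3.91 and 4.99 in the *Sox2* library, a span of 1.08 log2 units, while the other EE combinations of this library spanned 3.56. In the *Lefty1* library the members lay between 4.28 and 5.67 and spanned 1.39, against 4.13 for the others. In the *Ap1m1* library the spans were nearly alike, 1.40 for members and 1.55 for the others. Each member varied little between replicates, with a median SD of log2 activity of 0.13 to 0.18 per library. The SD among pair medians was 0.29 to 0.39, so that pairs differed from each other by more than the replicates of a combination did. The SD among the combinations of a pair, which differ in order and orientation, was 0.18 to 0.27.

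The highest member in the *Lefty1* library was Lefty1_E085 followed by Otx2_E111, both in plus orientation, with a boost index of 5.89 ± 0.10 and replicates of 5.76, 5.88 and 5.97. In the *Tbx3* library it was Lefty1_E094 (plus) with Pou5f1_E081 (minus), at 5.74 ± 0.40 (5.99, 5.81 and 5.24). In the *Sox2* library it was Klf2_E058 with Lefty1_E094, both plus, at 5.23 ± 0.16 (5.42, 5.21 and 5.11). Lefty1_E094, 1 of the weakest strong enhancers on its own, was thus part of the top pair in libraries with high and, as follows, low levels of the members. In the *Nanog* library the top member was Pou5f1_E081 (minus) with Lefty1_E094 (plus), at 3.13 ± 0.30 (2.84, 3.42 and 3.02). Lefty1_E094 with Otx2_E111, both plus, was highest in the *Otx2* library at 2.84 ± 0.56 (2.5, 2.45 and 3.45) and in the *Ap1m1* library at 1.72 ± 0.28 (1.45, 2.01 and 1.72). The remaining top members both ended with Otx2_E111 in plus orientation. In the *Fgf5* library Klf2_E058 with Otx2_E111 reached 5.00 ± 0.32 (5.49, 5.05 and 4.87), and in the *Klf2* library Nanog_E090 with Otx2_E111 reached 2.90 ± 0.43 (2.41, 2.98 and 3.26).

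In all 8 libraries the top EE combination was not a member but a pair of a strong with a middle or weak enhancer, of which there were many more combinations. These pairs are named after their values were seen. In the *Lefty1* library Klf2_E058 with Otx2_E114, a weak enhancer with an S of 0.85, had a boost index of 6.07 ± 0.11. The same pair of enhancers was also highest in the *Fgf5* library (5.04 ± 0.31) and the *Klf2* library (3.17 ± 0.40). In the *Nanog* library Tbx3_E206 with Pou5f1_E081 reached 3.41 ± 0.22, and in the *Ap1m1* library Nanog_E090 with Tbx3_E203 reached 2.08 ± 0.48. Members made up 40.8% of the top 1% of EE combinations in the *Lefty1* library (40 of 98), where they were 4.39% of all. They made up 27.0% of the top 1% in the *Tbx3* library, 26.8% in the *Fgf5* library, 22.2% in the *Klf2* library and 20.8% in the *Sox2* library. The shares were lower in the *Otx2* library (15.1%) and the *Nanog* library (10.0%). Among all EE combinations of a library the members were 4.39% to 5.12%. The enhancers were selected for high EC values with *Lefty1*, *Tbx3* and *Sox2*, so that high shares in these libraries are built in. The shares, and their differences between libraries, are therefore descriptions. In the *Ap1m1* library the members held 3 of 97 places (3.09%), beside a share of 4.45% among all EE combinations. Pairs of a strong and a middle enhancer, 19.4% of all EE combinations, held 30 to 47 of these places per library.

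Next it was asked how much a second strong enhancer added to the first. For each member the gain is its log2 activity minus the higher of both single-enhancer medians in the position used. The median gain was 0.41 ± 0.14 in the *Fgf5* library (0.24, 0.46 and 0.50 in the replicates), 0.36 ± 0.09 in the *Lefty1* library (0.26, 0.41 and 0.41) and 0.33 ± 0.08 in the *Tbx3* library (0.25, 0.38 and 0.38). In the *Sox2* library it was 0.25 ± 0.09 (0.27, 0.36 and 0.17). In these 4 libraries the gain was above 0 in every replicate. It was 0.08 ± 0.11 with *Klf2* (-0.05, 0.15 and 0.15) and 0.07 ± 0.12 with *Otx2* (-0.05, 0.15 and 0.16). It was -0.06 ± 0.09 with *Nanog* (-0.14, 0.04 and -0.04) and -0.14 ± 0.14 with *Ap1m1* (-0.26, 0.01 and -0.17). With these 4 promoters the replicates lay on both sides of 0, so that a second strong enhancer gave no gain beyond the spread between replicates.

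Additive pairs would have gained more in each library. The median gain expected from adding both single activities was 0.75 with *Sox2*, 0.70 with *Tbx3*, 0.69 with *Lefty1*, 0.66 with *Nanog*, 0.65 with *Otx2*, 0.62 with *Klf2*, 0.60 with *Fgf5* and 0.23 with *Ap1m1*. In the *Nanog* library 45.2% of the members were above their stronger enhancer, against 69.9% of all EE combinations, and in the *Ap1m1* library 34.2% against 65.7%. In the *Lefty1* and *Fgf5* libraries the shares were 80.4% and 81.6%, against 81.3% and 80.4% of all. Averaged over the 8 libraries the gain was 0.16, above 0 in 6 of 8 libraries, which did not pass the two-sided exact sign-flip permutation test (p = 0.0703, adjusted over 5 tests of this kind 0.0879). Without the *Ap1m1* library it was 0.21 and without replicate 1 it was 0.22 (exact p = 0.0312 for both), and over the 5 libraries not used to select the enhancers 0.07 (exact p = 0.562). With a threshold on S of 3.5 it was 0.04 (exact p = 0.594), and without the pairs that hold Lefty1_E094, chosen after their values were seen, 0.07 (exact p = 0.32).

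The level of a strong enhancer was then followed as its partner became stronger, using the median boost index per strong enhancer and the mean over the 12. With the *Lefty1* promoter the mean was 4.21 ± 0.05 (SD, n = 3) with control partners, 4.35 ± 0.07 with weak, 4.63 ± 0.08 with middle and 5.01 ± 0.15 with strong partners. With the *Fgf5* promoter (11 enhancers with controls) it was 3.19, 3.45, 3.69 and 4.11 in the same order. With *Tbx3* the means were 3.84, 4.04, 4.30 and 4.54, and with *Sox2* 3.90, 4.08, 4.28 and 4.48. With these 4 promoters each step was upward. With *Klf2* they were 1.71, 1.78, 1.90 and 1.95, and with *Otx2* 1.73, 1.83, 1.95 and 2.00. With *Nanog* the means were 1.97, 2.04, 2.14 and 2.11, and with *Ap1m1* 0.60, 0.74, 0.84 and 0.59. The last step was thus small with *Klf2* and *Otx2* and downward with *Nanog* and *Ap1m1*. With *Ap1m1*, strong enhancers with strong partners were at the level they had with controls. The classes rest on S, which was defined without the *Ap1m1* library. With *Ap1m1* and controls the 12 enhancers ranged only from 0.21 (Sox2_E180) to 1.02 (Lefty1_E094).

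The step from weak to middle partners was 0.18 on average and positive in 8 of 8 libraries (exact sign-flip permutation test, p = 0.00781, adjusted 0.0130), from 0.10 ± 0.02 in the *Ap1m1* library to 0.28 ± 0.01 in the *Lefty1* library. The 8 libraries share their enhancers and the cell line, so that this p does not cover the spread over enhancers. The step from middle to strong partners was 0.13 on average and positive in 6 of 8 libraries (exact p = 0.125). It was 0.41 ± 0.10 with *Fgf5*, 0.38 ± 0.07 with *Lefty1*, 0.23 ± 0.06 with *Tbx3* and 0.20 ± 0.07 with *Sox2*, above 0 in all 3 replicates of each. It was -0.25 ± 0.09 with *Ap1m1*, where the replicates were -0.31, -0.14 and -0.24. With *Klf2* (0.06 ± 0.07), *Otx2* (0.05 ± 0.11) and *Nanog* (-0.03 ± 0.10) the replicates lay on both sides of 0. Without *Ap1m1* the mean step was 0.19 (exact p = 0.0312). With a threshold on S of 3.5, where Lefty1_E094, Sox2_E183 and Nanog_E064 count as middle enhancers, it was -0.0068, positive in 4 of 8 libraries. Without the pairs that hold Lefty1_E094, an alternative chosen after its values were seen, it was 0.05 (exact p = 0.516).

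For comparison, additive pairs would have taken a larger last step in each library. The expected mean boost indices with middle and strong partners were 4.40 and 5.34 with *Lefty1*, 4.15 and 4.91 with *Sox2*, 2.29 and 2.79 with *Nanog* and 0.94 and 1.05 with *Ap1m1*. With weak partners the observed value was above the expected one with *Lefty1* (4.35 against 4.27), *Fgf5* (3.45 against 3.10), *Tbx3* (4.04 against 3.89) and *Sox2* (4.08 against 4.00). It was below the expected one with *Nanog* (2.04 against 2.09), *Otx2* (1.83 against 1.87), *Klf2* (1.78 against 1.84) and *Ap1m1* (0.74 against 0.80). With strong partners it was below the expected one in all 8 libraries.

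The response to the partner was also fitted as a slope of log2 activity on the partner's S, with the strong enhancer as a factor, separately for 36 partners with S below 2 and 19 partners with S of 2 or more. With *Sox2* the slope was 0.27 ± 0.02 per unit of S in the lower range and 0.01 ± 0.04 in the upper range (-0.01, 0.06 and -0.00363 in the replicates). With *Nanog* it was 0.17 ± 0.02 and 0.02 ± 0.05, and with *Otx2* 0.16 ± 0.02 and 0.02 ± 0.07. With these 3 promoters the upper slope lay on both sides of 0 among replicates. With *Ap1m1* it turned from 0.10 ± 0.03 to -0.07 ± 0.05 and was below 0 in all 3 replicates (-0.11, -0.01 and -0.08). A positive slope remained in the upper range in all 3 replicates with *Lefty1* (0.18 ± 0.05, lower range 0.31), *Fgf5* (0.15 ± 0.07, lower range 0.31), *Tbx3* (0.12 ± 0.04, lower range 0.30) and *Klf2* (0.07 ± 0.05, lower range 0.16). The upper minus the lower slope was -0.16 on average and negative in 8 of 8 libraries (exact sign-flip permutation test, p = 0.00781, adjusted 0.0130). All libraries hold the same strong enhancers and partners, whose spread this p does not cover. Expected additive activities have slopes that rise, from 0.12 to 0.44 with *Lefty1*, from 0.17 to 0.35 with *Sox2* and from 0.21 to 0.24 with *Nanog*, except with *Ap1m1*, where they fell from 0.14 to 0.04. The selection used S but not the EE values. Over the 5 libraries whose EC values were not used, the mean difference was -0.15 and negative in 5 of 5, at the smallest p that 5 libraries allow (exact p = 0.0625).

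Members were below the additive expectation with each promoter. The median log2 ratio of observed over expected additive activity was -0.68 ± 0.09 with *Nanog* (SD, n = 3), -0.53 ± 0.09 with *Otx2* and -0.51 ± 0.10 with *Klf2*. It was -0.49 ± 0.12 with *Sox2*, -0.36 ± 0.05 with *Ap1m1*, -0.35 ± 0.05 with *Tbx3* and -0.29 ± 0.11 with *Lefty1*. The *Fgf5* library was closest to additivity, at -0.20 ± 0.17, with -0.36, -0.19 and -0.02 in the replicates. Pairs that were not members had medians near or above 0, namely 0.60 with *Fgf5*, 0.29 with *Tbx3*, 0.26 with *Lefty1* and 0.20 with *Sox2*, and between -0.03 and 0.002 with the other 4 promoters. The expectation of *Sox2*, *Lefty1* and *Tbx3* contains the EC values that selected the enhancers. Over the other 5 libraries the difference, members minus other pairs, was -0.57 and negative in 5 of 5, which cannot pass the test with 5 libraries (exact sign-flip permutation test, p = 0.0625, the smallest possible). With all 8 libraries, 3 of which are not independent of the selection, it was -0.59 and negative in 8 of 8 (exact p = 0.00781, adjusted 0.0130). A multiplicative expectation lay further off, with member medians of observed over expected from -3.50 with *Sox2* to -0.49 with *Ap1m1*.

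The observed and expected order of the members was compared as a description. When the members of a library were ranked by their expected additive activity and divided into 3 parts of equal size, the expected median boost index from the lowest to the highest part rose from 4.64 to 5.22 with *Sox2*, while the observed median went from 4.55 to 4.48, a difference of -0.07 ± 0.07. With *Tbx3* the expected rise was 0.75 and the observed one 0.11 ± 0.09, and with *Lefty1* 0.77 and 0.20 ± 0.12. With *Fgf5* they were 0.94 and 0.24 ± 0.11. With these 4 promoters the observed rise was small beside the expected one. With *Nanog* the expected rise was 0.44 and the observed one 0.23 ± 0.06, with *Klf2* 0.44 and 0.26 ± 0.07, and with *Otx2* 0.37 and 0.15 ± 0.06. With *Ap1m1* the observed rise of 0.73 ± 0.09 was larger than the expected rise of 0.60, and the observed medians of 0.31, 0.61 and 1.04 lay below the expected 0.70, 1.05 and 1.30 in each part. The *Ap1m1* members thus followed the order of their expectation at a lower level, where those of the other promoters rose less than expected. The expectation of *Sox2*, *Lefty1* and *Tbx3* uses the values of the selection, and error in an expectation lowers the observed rise in any library.

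The same was seen in the slope of observed on expected log2 activity, which among members was -0.04 ± 0.09 with *Sox2*, 0.19 ± 0.11 with *Fgf5*, 0.19 ± 0.08 with *Tbx3* and 0.25 ± 0.05 with *Lefty1*. It was 0.40 ± 0.21 with *Otx2*, 0.49 ± 0.12 with *Klf2*, 0.62 ± 0.19 with *Nanog* and 1.02 ± 0.03 with *Ap1m1*. Among other pairs it was 0.69 to 1.01. These slopes are descriptions, since the expected values of members have a smaller spread (SD of 0.21 to 0.49) than those of other pairs (0.35 to 1.85), which alone lowers a fitted slope when the expectation carries error.

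Single combinations were tested against the additive expectation with limma over the 3 replicates, with Benjamini-Hochberg adjustment over all 67636 EE combinations at a 5% FDR. In the 5 libraries not used for the selection, 1205 of 1991 members (60.5%) were called below the expectation, against 15.2% of all combinations of these libraries, and 46 (2.31%) above it, against 14.5% of all. In the *Nanog* library 322 of 416 members (77.4%) were below, against 20.4% of all combinations, and 0 were above, against 13.5% of all (3 at an unadjusted p under 0.05). In the *Otx2* library 274 of 408 (67.2%) were below, against 16.6%, and 1 above, against 10.6%. In the *Klf2* library 274 of 417 (65.7%) were below, against 15.5%, and 6 above, against 12.7%. In the *Ap1m1* library 243 of 430 (56.5%) were below, against 15.9%, and 1 above, against 9.40%. With these 4 promoters nearly all calls among members were downward.

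Calls in both directions were found with the other promoters. In the *Fgf5* library 92 of 320 members (28.7%) were below, against 3.82% of all, and 38 (11.9%) above, against 32.6%. For the next 3 libraries the expectation contains the values of the selection, and nothing is read from their counts. In the *Sox2* library 213 of 367 members were below (background 9.20%) and 23 above (31.1%). In the *Lefty1* library 198 of 429 were below (10.1%) and 69 above (39.0%), and in the *Tbx3* library 199 of 417 were below (8.44%) and 76 above (40.5%). With all 8 libraries pooled, 1815 of 3204 members (56.6%) were below, against 12.9% of all, and 214 (6.68%) above, against 23.2%, and 168 of these 214 came from the 3 libraries of the selection. These counts depend on the FDR, because at 1% limma called 0 members in either direction, with 2057 below and 292 above at an unadjusted p under 0.05. They also depend on the replicates, since without replicate 1 or without replicate 2 limma again called 0, and without replicate 3 it called 1407 (43.9%, against 8.56% of all) below and 119 (3.71%, against 15.6%) above. A rule without limma, an activity more than 1 propagated SD from the expectation, gave 1670 of 3174 members (52.6%, against 8.00% of all) below and 215 (6.77%, against 18.1%) above. The counts for these alternatives are over all 8 libraries.

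Among the 58 pairs, 49 had a median log2 ratio of observed over expected below 0 over the libraries, and 37 were below 0 in each library with an expectation. The 9 pairs above 0 all held Lefty1_E094. This enhancer was part of 10 pairs with a median of 0.08, and the 48 pairs without it had a median of -0.54 and a highest value of -0.04. These medians include the libraries of the selection, and Lefty1_E094 is singled out after its values were seen. In the 5 other libraries, 38 of 316 tested members with Lefty1_E094 were called above the expectation and 37 (11.7%) below, against 14.5% and 15.2% of all combinations there. The highest medians were those of Lefty1_E094 with Otx2_E111 (0.27), with Nanog_E064 (0.24) and with Nanog_E090 (0.15). Lefty1_E094 with Otx2_E111 was above the expectation in 8 of 8 libraries, from 0.04 with *Ap1m1* to 0.69 with *Tbx3*. The ratio was 0.63 with *Lefty1*, 0.60 with *Fgf5* and 0.37 with *Sox2*. It was only 0.17 with *Klf2*, 0.10 with *Otx2* and 0.08 with *Nanog*, and no spread over replicates is given for these ratios. The boost index of this pair was 5.48 ± 0.05 with *Lefty1* (5.42, 5.52 and 5.47), 4.90 ± 0.02 with *Sox2* (4.90, 4.95 and 4.91) and 2.67 ± 0.12 with *Klf2* (2.59, 2.79 and 2.57). With *Nanog* it was 2.89 ± 0.23 and with *Otx2* 2.62 ± 0.22, above the members' medians of 2.11 and 2.02.

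The lowest medians were those of Klf2_E058 with Nodal_E159 (-1.25), Nodal_E159 with Sox2_E180 (-1.19) and Nanog_E074 with Sox2_E180 (-1.12), each below the expectation in 8 of 8 libraries. Klf2_E058 with Nodal_E159 had a boost index of 4.59 ± 0.27 with *Lefty1* (4.27, 4.80 and 4.62), 3.83 ± 0.32 with *Tbx3* (3.95, 4.11 and 3.49) and 1.26 ± 0.28 with *Klf2* (1.01, 1.57 and 1.32). With controls, these 2 enhancers had boost indices of 4.80 and 4.59 with *Lefty1*, 4.44 and 4.18 with *Tbx3* and 1.89 and 1.77 with *Klf2*, so that the pair was lower than either enhancer alone with *Tbx3* and *Klf2*. Nodal_E159 with Sox2_E180 reached 3.70 ± 0.11 with *Sox2* (3.69, 3.77 and 3.56) and -0.0083 ± 0.34 with *Ap1m1* (-0.32, 0.36 and -0.01), which is at the baseline of this promoter. Nanog_E074 with Sox2_E180 reached 4.17 ± 0.32 with *Lefty1* (3.84, 4.47 and 4.19) and -0.09 ± 0.31 with *Ap1m1* (-0.37, 0.24 and -0.14). The replicates of both pairs lay on both sides of the *Ap1m1* baseline.

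With most promoters, but not with *Ap1m1*, the strength of an enhancer with controls said little about its level in strong pairs. With the *Lefty1* promoter, single enhancers ranged from 3.17 (Sox2_E183) to 5.00 (Pou5f1_E081), and their median boost indices over strong partners only from 4.64 (Nanog_E074) to 5.26 (Lefty1_E094). Across the 12 enhancers Pearson's R of both measures was 0.18 with *Lefty1*, 0.07 with *Tbx3* and -0.13 with *Sox2*. It was 0.22 with *Fgf5* (11 enhancers), 0.15 with *Otx2*, 0.26 with *Klf2*, 0.36 with *Nanog* and 0.80 with *Ap1m1*. Spearman's rho was 0.71 with *Ap1m1*, 0.58 with *Nanog*, 0.39 with *Klf2* and between 0 and 0.18 with the other promoters. Under the additive expectation Pearson's R would have been 0.97 to 0.99 in each library. This expectation is calculated from the same EC combinations as the single values. A correlation near 1 is therefore built in, and nothing is read from its distance to the observed values. These correlations are descriptions, since each combination enters the median of both its enhancers, and the range of single values is cut by the threshold.

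Lefty1_E094 had the highest level in strong pairs in 7 of 8 libraries and the third highest with *Fgf5*, and its median was on average 0.36 above the mean of the 12 enhancers. Its boost index was 5.26 ± 0.09 over strong partners and 3.36 with controls in the *Lefty1* library, 4.77 ± 0.11 and 3.09 in the *Sox2* library and 1.15 ± 0.17 and 1.02 in the *Ap1m1* library. With *Ap1m1* it was also the strongest of the 12 with controls. Nanog_E073 (0.16 above the mean), Pou5f1_E081 (0.14), Lefty1_E085 (0.10) and Nanog_E090 (0.06) were above the mean in 8 of 8 libraries as well, and Otx2_E111 (0.12) in 7. Nanog_E064 (0.01) and Klf2_E058 (-0.02) were close to the mean, although Klf2_E058 was the second strongest enhancer on its own. Nanog_E074 (-0.29), Nodal_E159 (-0.27), Sox2_E183 (-0.19) and Sox2_E180 (-0.17) were below the mean in 8 of 8 libraries. Of these 4, Sox2_E183 had the lowest S of the 12 and Sox2_E180 the third highest. Nanog_E073 and Nanog_E074, whose windows overlap in a small part of their length, lay on opposite sides, with 5.18 ± 0.08 and 4.64 ± 0.24 in the *Lefty1* library and 2.3 ± 0.33 and 1.75 ± 0.38 in the *Nanog* library.

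Several middle enhancers did as well next to a strong enhancer as a strong partner did. Of 25 middle partners, 18 exceeded the median of the strong partners in the *Ap1m1* library, 11 in the *Nanog* library, 6 each in the *Otx2* and *Klf2* libraries, 4 in the *Tbx3* library, 3 in the *Sox2* library and 1 each in the *Lefty1* and *Fgf5* libraries. Tbx3_E203, with an S of 1.83 and named after its values were seen, reached a median boost index of 2.63 with strong enhancers in the *Nanog* library and of 1.32 in the *Ap1m1* library, above each of the 12 strong partners. In the *Sox2* library it reached 4.42, below the strong partners' median of 4.56. Sox2_E179 and Tbx3_E209, just below the threshold, had medians of 4.43 and 4.81 in the *Lefty1* library and of 0.46 and 0.80 in the *Ap1m1* library, against strong medians of 5.02 and 0.65.

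The members were also compared by the order and orientation of their enhancers. Swapping the positions of both enhancers changed the median boost index of a pair by a median of 0.14 to 0.20 per library, regardless of sign. Turning the enhancer in position 1 changed it by 0.14 to 0.17, and turning the enhancer in position 2 by 0.15 to 0.33. Differences taken regardless of sign are above 0 from measurement error alone. For comparison, the median SD of a member over replicates was 0.13 to 0.18 per library. With sign, plus minus minus orientation was -0.03 to 0.05 in position 1 and -0.0035 to 0.12 in position 2. For single enhancers the paper reports little dependence on position and orientation. The largest effect of orientation was that of Otx2_E111 in position 2, where plus exceeded minus by 0.54 on average, in 8 of 8 libraries, with 0.60, 0.51 and 0.49 in the 3 replicates. In position 1 the difference for Otx2_E111 was -0.05. Lefty1_E085 in position 2 showed the opposite sign, -0.39 on average and below 0 in 8 of 8 libraries, and so did Pou5f1_E081 in position 2 (-0.32). Klf2_E058 in position 1 was higher in plus orientation by 0.33, in 8 of 8 libraries.

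The ranking of members was shared between promoters. Over 328 to 419 combinations measured with both promoters, Pearson's R of the boost indices was 0.73 to 0.93 for the 21 pairs of libraries without *Fgf5* and 0.49 to 0.70 for the 7 with it. The libraries share the enhancer pool and the cell line, so that these values are descriptions. A pair high with one promoter was thus mostly high with the others, although the median boost index of the members, from 0.59 with *Ap1m1* to 5.01 with *Lefty1*, differed between promoters.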

How the data were processed

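The members, enhancer classes and tests were chosen with earlier results of these data known. Per the submitters' processing notes and the methods of the study, the authors aligned inverse PCR reads with Bowtie2, linked barcodes to fragments, divided barcode counts by the total of each sample and calculated the cDNA over pDNA ratio per barcode. The authors averaged these ratios over 5 or more barcodes per combination, each with 8 or more pDNA counts, and deposited the mean ratio of each replicate as its activity. Apart from the CC baselines, activities were not compared between libraries, since each was scaled to its own total. From the deposited replicate activities, the geometric mean, the CC baseline (median over CC combinations above 0), boost indices and additive expectations (single activities in each position, summed, minus the baseline) were recalculated in Python 3.11.15 (pandas 2.3.3, numpy 2.4.6, scipy 1.17.1). Columns with the authors' own boost indices, expectations and calls were not used. Replicates are separate transfections.

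Results with 1 value per library were tested by exact permutation of the signs of the 8 values (two-sided, smallest p 0.00781) and adjusted over 5 tests. The test takes the libraries as independent units, although they share the enhancers and the cell line. Its p-values therefore apply to these enhancers only. Single combinations were tested with limma 3.58.1 in R 4.3.3, as an intercept over 3 replicates. The calculations were tested on simulated data. Named were all promoters, every strong enhancer, both enhancers on each side of the threshold, the top member of each library and the 3 highest and 3 lowest pairs measured in at least 6 libraries. Alternatives changed replicates, averaging, baseline, the threshold on S (2.5 and 3.5), single-enhancer medians, libraries and the call rule. Fragment coordinates and primer sequences were taken from the supplementary files of the study, and promoter sequences from RefSeq (GRCm38.p6).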

Additional observations from a re-analysis of the deposited data

Results flagged for a closer look

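Some promoters moved in opposite directions in all 3 replicates. The step from middle to strong partners was -0.25 in the *Ap1m1* library, below 0 in each replicate, and 0.41, 0.38, 0.23 and 0.20 in the *Fgf5*, *Lefty1*, *Tbx3* and *Sox2* libraries, above 0 in each replicate. In the upper range of the partner's S, the slope was -0.067 in the *Ap1m1* library, below 0 in each replicate, and 0.18, 0.15, 0.12 and 0.066 in the *Lefty1*, *Fgf5*, *Tbx3* and *Klf2* libraries, above 0 in each replicate. These differences between libraries were not tested. S was defined on the *Sox2*, *Lefty1* and *Tbx3* libraries and does not measure strength with *Ap1m1*. Each promoter is 1 library, so that promoter and library cannot be told apart.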

How the results depend on the processing

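The partner response, the step from weak to middle partners and the deficit of members against other pairs kept their direction in all alternatives run and passed the test in all but one. With only the 5 libraries not used for the selection they were -0.15, 0.13 and -0.57, each at the smallest p of 0.0625. All other settings of the deficit include libraries of the selection, whose EC values also enter the expectation. The gain over the stronger enhancer passed the test with geometric means over EC combinations (0.22, exact p = 0.0234) and without *Ap1m1* (0.21), and the step from middle to strong partners without *Ap1m1* (0.19). At an S of 3.5 or more, Lefty1_E094, Sox2_E183 and Nanog_E064 counted as middle enhancers. The step from middle to strong partners was then -0.0068 (exact p = 0.93), positive in 4 of 8 libraries, and the gain was 0.04. Without the pairs of Lefty1_E094 the gain was 0.07. Leaving out 1 replicate gave gains of 0.13 to 0.22 (passing the test without replicate 1 only) and last steps of 0.10 to 0.17. The weak to middle steps were then 0.17 to 0.18, the deficits -0.60 to -0.55 and the partner responses -0.17 to -0.14. Without replicate 1 or 2, limma called 0 members and 0% of all combinations. Without replicate 3 it called 1407 members (43.9%, against 8.56% of all) below and 119 (3.71%, against 15.6%) above. At a 1% FDR limma called 0 members and 0% of all combinations in both directions (2057 members below and 292 above at an unadjusted p under 0.05). At an S of 3.5 or more, 16 of 1827 members (0.876%, against 23.2% of all) were above and 1355 (74.2%, against 12.9%) below. Without the pairs of Lefty1_E094 (added after their values were seen), 46 of 2686 (1.71%, against 23.2%) were above and 1778 (66.2%, against 12.9%) below. The causes were not tested. S calculated without the library tested and the deposited baselines gave the same 3229 members. Leaving out overlapping fragments would not change the members, because no member has them. The other pairs, against which the deficit is taken, were not evaluated without such fragments.

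In a further alternative, the value of each library was the mean of its replicate values. The gain was then 0.17 and the last step 0.13, and neither passed the test (exact p = 0.0703 and 0.117). The weak to middle step was 0.17, the deficit -0.57 and the partner response -0.16, which passed it (exact p = 0.00781 for each). Calls of single combinations were not part of this alternative. Same-numbered replicates of different libraries correlated in their deviations by 0.18 on average, over 0.1 in 57 of 84 cases, and differently numbered ones by -0.09, over 0.1 in 13 of 168 cases. Not every same-numbered case was over 0.1, the criterion for taking the numbers as pairs. Unknown barcode numbers limit what can be said of single combinations, and the *Fgf5* baseline rests on 23 CC combinations.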
